A study of Mus musculus with 73 samples.

Results

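The data here show how the transcriptome of male adrenals changed at 6 weeks of age when Znrf3 was removed from steroidogenic cells. The comparison was defined by sex, age and genotype and uses 8 of the 73 libraries of the series: 4 from XY Znrf3 cKO mice (PRVL1, PRVL2, PRVL3 and PRVL4) and 4 from XY controls (PRVL5, PRVL6, PRVL8 and PRVL9). The knockout effect was then set beside that in XY mice at 4 weeks (4 Znrf3 cKO and 4 control libraries). It was also set beside XY mice at 12 weeks (4 and 5 libraries) and XX mice at 6 weeks (4 and 4). Each library is poly(A) RNA of whole adrenal glands, so cortex, capsule, medulla, vessels and any resident or infiltrating cells were measured together. Znrf3 cKO mice, which the labels call KO, came from Znrf3 fl/fl mice mated with SF1-Cre high mice, in which regulatory sequence of SF1, a factor made by steroidogenic cells, drives the Cre that removes the exons that encode the RING domain of ZNRF3. Controls were littermates that the labels call WT. Mice were of C57Bl/6 background, the labels name no treatment for these groups, and an mTmG reporter was included in the breeding of mice not used for flow cytometry. The sources used here do not state that the libraries are from different mice. The p-values therefore reflect the variation among libraries, part of which may be technical.

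ZNRF3 is a membrane E3 ubiquitin ligase that removes Frizzled receptors from the cell surface and so restrains WNT signalling. R-spondins, with their LGR receptors, clear ZNRF3 and its relative RNF43 and let WNT signals through. In the adrenal, the capsule secretes R-spondin 3, WNT signalling is strongest in the outer zona glomerulosa, which makes aldosterone, and falls towards the zona fasciculata, which makes corticosterone. The medulla in the centre holds chromaffin cells, which derive from the neural crest, do not belong to the steroidogenic lineage, and make and store catecholamines.

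Depth, as recovered from the spacing of low values, was 11.1 to 37.6 M reads per Znrf3 cKO library and 29.3 to 42.2 M per control library. PRVL3 was the shallow one. The libraries fitted their labelled sex, with the Y-linked helicase gene Ddx3y at 12.9 to 30.0 RPKM (reads scaled to transcript length and library depth) and Xist at or under 0.0334 RPKM. Tissue markers fitted an adrenal, with Cyp11a1, the first enzyme of steroid synthesis, at 1368 to 1709 RPKM in every library, and kidney tubule markers were too low to be tested. Before any result, 2 libraries are pointed out for their marker lists: PRVL1 among the Znrf3 cKO libraries, described below, and PRVL8 among the controls. PRVL8 had the lowest value of the 8 for 11 of 13 endothelial genes and the highest for 9 of 18 chromaffin genes. Across all genes, the control PRVL9 was about as far from the other controls as PRVL8 (root mean square distance 0.323 against 0.314 on the log2 scale). It had 21 genes at least 2-fold below every other library, against 5 for PRVL8. PRVL5 and PRVL6 were the closest pair (r = 0.9931 across genes) but differed beyond sampling noise and were kept as 2 libraries.

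Of 19174 genes whose mean reached 0.5 RPKM in either group, 1917 (10.0%) differed between Znrf3 cKO and control adrenals at an adjusted p under 0.05 (limma on log2(RPKM + 1), two-sided). Of these, 539 (2.81%) were higher and 1378 (7.19%) were lower in Znrf3 cKO. A count of called list members near these shares says nothing particular about the list. The 4 libraries of one group lay wholly above the 4 of the other for 3384 genes (17.6%), of which 1362 (7.10%) were higher and 2022 (10.5%) lower. The median log2 fold change over all genes tested was 0.02, and the excess of falls held at large sizes, with 385 falls against 86 rises past an absolute log2 fold change of 1. When libraries were rescaled to a common sum, which moved the median to -0.07, the split became 326 higher against 1596 lower. The number of rises leaned on single libraries: it was 239 without PRVL6, 241 without PRVL5, 298 without PRVL3 and 875 without PRVL8. In whole glands, fewer cells of a type and less RNA per cell cannot be told apart.

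**Figure D1:**
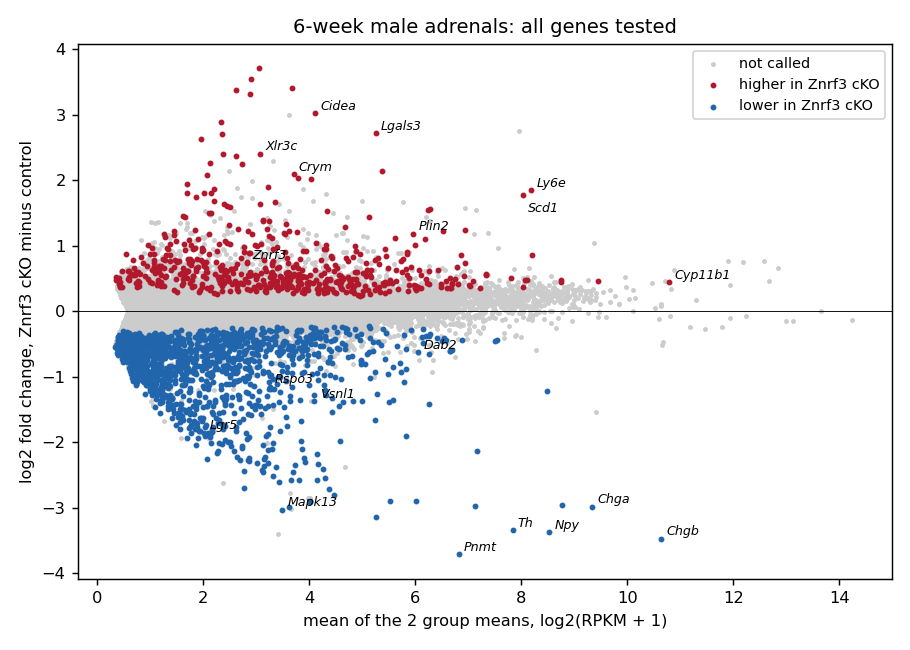
Each point is 1 of the 19174 genes tested, placed by the log2 of its mean level (mean of both group means in RPKM, plus 1) and by its log2 fold change, Znrf3 cKO minus control, with 539 genes called higher in red and 1378 called lower in blue. The deepest falls among abundant genes are chromaffin genes (Pnmt, Chgb, Npy, Th, Chga), and the 5 points above Cidea are predicted pseudogenes left out of the naming rule.

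Transcripts of the targeted gene were not lower in the knockout. Znrf3 (chr11:5276324-5444847 in mm10) stood at 7.57, 8.10, 6.64 and 9.05 RPKM in PRVL1 to PRVL4 and at 3.80, 3.76, 4.21 and 5.33 RPKM in the controls. All 4 Znrf3 cKO libraries were above all 4 controls, and the log2 fold change of 0.75 (SE 0.12) had an adjusted p of 0.00402, which stayed under 0.05 without any 1 library. The value sums reads over the whole gene, including exons outside the deleted part, so it does not check the deletion.

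Genes of the WNT pathway moved in both directions. Of 18 measured targets and feedback inhibitors, 3 rose and 8 fell, with a median log2 fold change of -0.25. Over all genes, 2.81% were called higher and 7.19% lower. Those that rose were Znrf3 itself, Axin2, the scaffold of the β-catenin destruction complex and a general WNT target, and Tnfrsf19, a receptor known as a WNT target. Axin2 was at 15.7, 13.3, 19.0 and 16.7 RPKM in Znrf3 cKO against 11.5, 10.9, 10.4 and 10.9 RPKM in controls. The groups did not overlap, and the rise was modest (log2 fold change 0.52, SE 0.10, adjusted p = 0.0111). In a fit that shared its estimate of the spread with males at 4 and 12 weeks the adjusted p of Axin2 was 0.0551. Tnfrsf19 rose by 0.41 on the log2 scale (SE 0.09, adjusted p = 0.0178), a call lost without PRVL4 (adjusted p = 0.0531) and in the shared fit (0.0886).

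The WNT genes that fell include several that normally mark the outer cortex. Lgr5, an R-spondin receptor, was at 0.470, 0.886, 0.668 and 0.860 RPKM in Znrf3 cKO and at 4.79, 4.89, 3.91 and 7.90 RPKM in controls. Every Znrf3 cKO library was below 1 RPKM, and the mean was 7.45-fold lower (log2 fold change -1.86, SE 0.18, adjusted p = 0.000227). Notum, a secreted enzyme that inactivates WNT proteins, was at 0.843, 1.38, 1.38 and 1.19 RPKM against 2.09, 2.85, 2.23 and 2.84 RPKM in controls (log2 fold change -0.67, SE 0.12, adjusted p = 0.00690). The secreted protein Dkk3 was at 6.80, 6.87, 7.61 and 7.15 RPKM against 12.8, 13.5, 12.1 and 14.7 RPKM (log2 fold change -0.82, SE 0.08, adjusted p = 0.000198). Both groups were tight for Dkk3, with SDs of 0.368 and 1.08 RPKM (n = 4 each).

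The other feedback genes that fell did so with weaker support. Nkd1 (-0.52), a brake on Dishevelled, Apcdd1 (-0.89), a membrane inhibitor of WNT, Rnf43 (-0.36), the relative of ZNRF3, Lef1 (-0.34), a transcription factor of the pathway, and Kremen1 (-0.41), a receptor for Dickkopf proteins, had adjusted p values of 0.0194 to 0.0439. Each of these calls was lost when certain single libraries were left out. Nkd1 was lost without PRVL4, PRVL6 or PRVL9 (adjusted p 0.0515 to 0.0663) and in the shared fit (0.139), Apcdd1 without PRVL1, PRVL4, PRVL5 or PRVL6 (0.0509 to 0.0620) and Rnf43 without any 1 library but PRVL2 or PRVL8 (0.0621 to 0.0977). Lef1 was lost without any 1 library but PRVL5 (0.0697 to 0.122) and Kremen1 without any 1 but PRVL8 (0.0616 to 0.104). The count of 8 falls in the list was accordingly 3 without PRVL4 or PRVL6, 4 without PRVL1 or PRVL9 and 5 without PRVL3 or PRVL5. Ccnd1, a cell cycle target of the pathway, was at 11.1 to 27.2 RPKM against 12.8 to 24.4 RPKM and did not pass the test (log2 fold change 0.22, SE 0.30, adjusted p = 0.677).

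Among 22 measured ligands, R-spondins and receptors, 3 fell, no Frizzled or LRP receptor was among them, and the median was -0.11. The share called lower over all genes was 7.19%. Rspo3, the R-spondin of the capsule, was at 2.93, 4.86, 6.02 and 6.18 RPKM in Znrf3 cKO against 14.3, 11.5, 10.4 and 12.0 RPKM in controls. PRVL1 was the lowest, but all 4 were below the controls (log2 fold change -1.15, SE 0.19, adjusted p = 0.00464). Wnt2b fell by 0.71 on the log2 scale (SE 0.14, adjusted p = 0.0131), a call lost in the fit shared with the other ages (adjusted p = 0.153). Wnt6 fell by 0.59 (SE 0.12, adjusted p = 0.0160), a call lost without PRVL5 or PRVL6 (adjusted p 0.0543 to 0.0551). Wnt4, the ligand of the zona glomerulosa, was at 41.3, 39.5, 53.6 and 40.0 RPKM against 44.6, 58.0, 65.7 and 58.4 RPKM, the groups overlapped, and the difference of -0.37 (SE 0.14) did not pass the test (adjusted p = 0.129). Of 14 signal transducers, 1 passed: Dvl3, a Dishevelled protein, fell by 0.31 (SE 0.08, adjusted p = 0.0369) and was lost without any 1 library but PRVL2 or PRVL8 (0.0638 to 0.109).

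**Figure D2:**
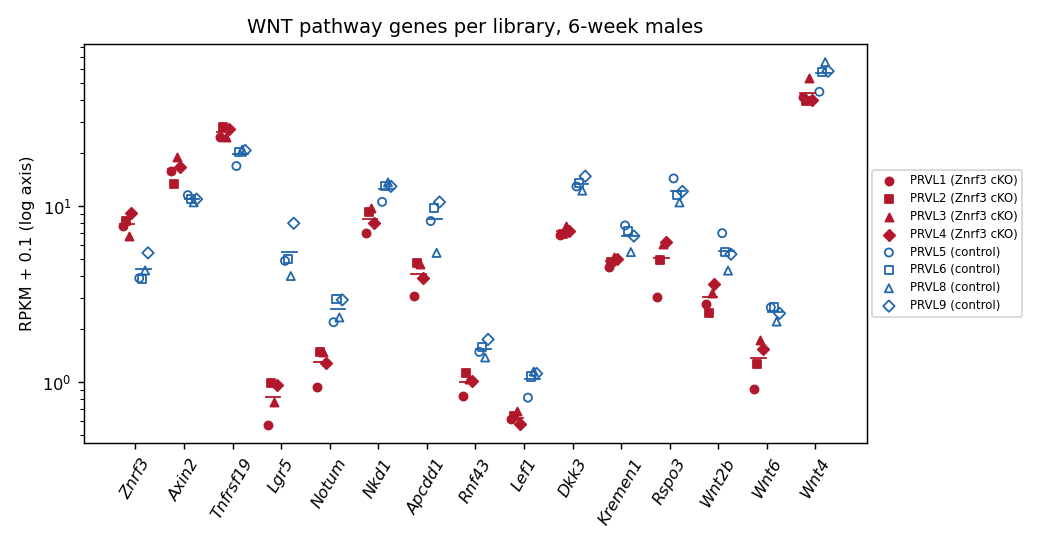
Level of 15 WNT pathway genes in each of the 8 libraries, in RPKM plus 0.1 on a log axis, with filled red symbols for Znrf3 cKO, open blue symbols for controls and a bar at each group mean. Znrf3, Axin2 and Tnfrsf19 sit above the controls in all 4 Znrf3 cKO libraries, Lgr5 shows the widest gap, and for Wnt4 the groups overlap.

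Markers of the zona glomerulosa also did not move as one. Of 10 measured, 3 fell, against 7.19% of all genes, and the median was -0.37. Dab2, an endocytic adaptor, was at 52.8, 47.0, 52.0 and 51.9 RPKM against 82.6, 75.4, 83.9 and 75.9 RPKM in controls (log2 fold change -0.63, SE 0.07, adjusted p = 0.000488). Agtr1b, an angiotensin II receptor, was at 5.39, 3.99, 5.35 and 5.05 RPKM against 11.0, 10.8, 9.14 and 10.9 RPKM (-0.95, SE 0.10, adjusted p = 0.000398). Vsnl1, a calcium sensor, was at 10.5, 5.41, 8.61 and 10.2 RPKM against 22.1, 22.8, 26.4 and 22.9 RPKM (-1.37, SE 0.17, adjusted p = 0.00112). For these 3 genes the groups did not overlap, and no single library decided the call. By contrast Cyp11b2, aldosterone synthase, averaged 508.1 ± 34.0 RPKM in Znrf3 cKO and 477.6 ± 91.1 RPKM in controls (SD, n = 4 each) and did not pass the test (log2 fold change 0.11, SE 0.14, adjusted p = 0.673).

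Most genes of steroid synthesis did not pass the test. Of 15 measured enzymes and electron donors, 2 rose (median 0.11), against 2.81% of all genes called higher. The summed level of the list was 18376 to 18893 RPKM in Znrf3 cKO and 15106 to 18281 RPKM in controls. Cyp11b1, the last enzyme of corticosterone synthesis, was at 2015, 2100.0, 1927 and 2095 RPKM against 1415, 1687, 1364 and 1537 RPKM. The groups did not overlap, but the log2 fold change of 0.44 (SE 0.11, adjusted p = 0.0325) kept its call only when PRVL6 was left out, and reached adjusted p values of 0.0510 to 0.117 without any other 1 library. Srd5a1, a steroid 5α-reductase, was at 15.2, 20.7, 14.0 and 13.6 RPKM against 5.75, 7.53, 3.22 and 6.98 RPKM (1.33, SE 0.22, adjusted p = 0.00515), a call that no single library decided. Hsd3b1, the main 3β-hydroxysteroid dehydrogenase, was higher in all 4 Znrf3 cKO libraries but did not pass (0.45, SE 0.14, adjusted p = 0.0719). Its low-level relatives Hsd3b3 (-1.14, adjusted p = 0.0164) and Hsd3b4 (-1.05, adjusted p = 0.0262) were called lower, the latter lost without any 1 library but PRVL9 (0.0516 to 0.0677), and both share sequence with Hsd3b1, so their reads are uncertain. Cyp21a1 (-0.10, adjusted p = 0.774), Cyp11a1 (-0.13, 0.494) and Star (-0.24, 0.488), which brings cholesterol into mitochondria, did not pass the test.

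Regulators of the cortex mostly did not pass the test, which does not show that they were unchanged. Of 16 measured, Gata6, a transcription factor of the steroidogenic lineage, was called higher (12.2 to 16.5 RPKM against 7.78 to 11.3 RPKM, log2 fold change 0.54, SE 0.14, adjusted p = 0.0364). That call was lost without PRVL1, PRVL3, PRVL4, PRVL5 or PRVL6 (0.0707 to 0.105), and 2.81% of all genes were called higher with all 8 libraries. Nr5a1, the gene of SF1, was at 115 to 276 RPKM against 73.8 to 239 RPKM (0.55, SE 0.37, adjusted p = 0.380), and Mc2r, the ACTH receptor, at 102 to 175 RPKM against 119 to 160.4 RPKM (-0.22, SE 0.17, adjusted p = 0.446). Akr1c18, a marker of the X-zone, a juvenile inner layer, was at 0.0827, 4.59, 5.22 and 1.16 RPKM in Znrf3 cKO and at 0, 0.0572, 0.337 and 4.37 RPKM in controls, with no separation of the groups.

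Capsule and fibroblast genes were lower for 3 of 11 measured (median -0.35), against 7.19% of all genes called lower. Beside Rspo3, these were Gli1, a Hedgehog target of the capsule, at 0.973 to 1.76 RPKM against 2.39 to 3.38 RPKM (-0.64, SE 0.13, adjusted p = 0.0142), and Lum, a matrix proteoglycan, at 4.23 to 9.61 RPKM against 11.7 to 18.4 RPKM (-0.93, SE 0.22, adjusted p = 0.0292). The call of Lum was lost without PRVL2, PRVL5 or PRVL9 (0.0622 to 0.0834). PRVL1 had the lowest of the 8 values for 9 of the 11 genes.

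The largest falls were those of chromaffin cell genes of the medulla. Of 18 measured, 17 fell (median -2.42), against 7.19% of all genes called lower. The summed level of the list was 386 to 850 RPKM in Znrf3 cKO against 4952 to 9595 RPKM in controls. Th, tyrosine hydroxylase, the rate-limiting enzyme of catecholamine synthesis, was at 20.5, 41.7, 44.3 and 47.4 RPKM against 301, 263, 735 and 366 RPKM in controls. The mean was 10.8-fold lower (log2 fold change -3.35, SE 0.35, adjusted p = 0.000387). The next enzymes of the pathway followed, with Ddc 6.78-fold lower (-2.45, SE 0.16, adjusted p = 5.10e-05) and Dbh 8.25-fold lower (-2.97, SE 0.28, adjusted p = 0.000207). Pnmt, which turns noradrenaline into adrenaline and is induced by glucocorticoids from the cortex, was at 3.86, 24.3, 24.1 and 17.9 RPKM against 175, 167, 241 and 241 RPKM. PRVL1 stood far below the other Znrf3 cKO libraries, and the mean was 11.8-fold lower (-3.72, SE 0.48, adjusted p = 0.00127).

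Granule proteins, transporters, peptides and transcription factors of chromaffin cells fell together. The granins Chga (87.6, 176, 161 and 158 RPKM against 995, 911, 1395 and 1259 RPKM) and Chgb (134, 251, 307 and 343 RPKM against 2104, 1919, 4886 and 2777 RPKM) were 7.82-fold and 11.3-fold lower (adjusted p = 8.76e-05 and 0.000335). The granin Scg2 was 7.80-fold lower (adjusted p = 0.000638). The vesicular monoamine transporters Slc18a1 (8.64-fold, adjusted p = 5.10e-05) and Slc18a2 (4.50-fold, adjusted p = 0.00235) and the peptide Npy (11.4-fold, adjusted p = 0.000574) were lower as well. Hand2 and Gata3, transcription factors of sympathoadrenal cells, fell by 2.30 and 1.80 on the log2 scale (adjusted p = 0.000284 and 8.77e-05), as did Cyb561, an electron carrier of the granule membrane (fell by 1.90, adjusted p = 5.10e-05). Penk, the enkephalin precursor, was at 3.71 to 10.1 RPKM against 12.1 to 26.1 RPKM (-1.35, adjusted p = 0.0188), a call lost without PRVL5 or PRVL6 (0.0555 to 0.0597). Ret, a receptor of sympathoadrenal cells, was lower in all 4 libraries (0.153 to 0.356 RPKM against 0.392 to 1.19 RPKM) but did not pass (-0.48, SE 0.14, adjusted p = 0.0712). The count of falls was 16 or 17 when any 1 library was left out. The part of the enlarged cortex in these falls was not tested.

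**Figure D3:**
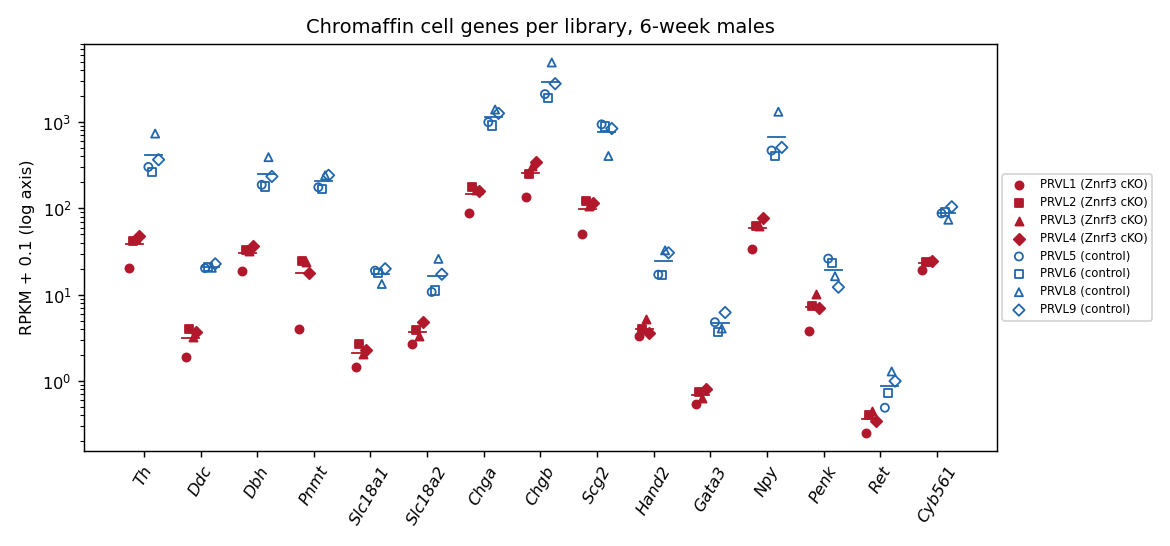
Level of 15 chromaffin cell genes in each of the 8 libraries, in RPKM plus 0.1 on a log axis, with filled red symbols for Znrf3 cKO, open blue symbols for controls and a bar at each group mean. The groups are apart for all 15 genes drawn, and PRVL1, the red circle, is the lowest of the 8 libraries for each of them.

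Promoters of the chromaffin genes were read because these genes moved together and the cAMP response element, bound by CREB, is a known control element of several of them. In the RefSeq promoter table (build GRCm38.p6, 250 bases before to 50 bases after a gene's start), 12 of the 18 genes had an entry. The letters TGACGTCA, which read the same on both strands, occurred for 4 of these 12 genes, against 2.03% of all genes with an entry. By promoter, 588 of all 32851 held them (1.79%). Since the element was chosen as known from several of these genes, their share does not bear on the falls. Over genes tested here that have an entry, 3.41% held the letters, with 4.38% among those called lower and 1.97% among those called higher. A match is a description of the letters and not of a bound site. The 4 promoters are shown because they carry the match, which is in capitals and begins 45, 72, 68 and 4 bases before the start of Th (chr7:142899946-142900245, minus strand), Chgb (chr2:132781392-132781691, plus strand), Scg2 (chr1:79439977-79440276, minus strand) and Slc18a2 (chr19:59260628-59260927, plus strand).
Th: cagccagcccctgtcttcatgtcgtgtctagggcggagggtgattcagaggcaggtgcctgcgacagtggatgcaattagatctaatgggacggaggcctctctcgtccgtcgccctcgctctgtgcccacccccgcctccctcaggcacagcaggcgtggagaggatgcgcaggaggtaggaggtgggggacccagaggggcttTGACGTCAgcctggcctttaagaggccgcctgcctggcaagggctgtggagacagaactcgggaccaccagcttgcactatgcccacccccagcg
Chgb: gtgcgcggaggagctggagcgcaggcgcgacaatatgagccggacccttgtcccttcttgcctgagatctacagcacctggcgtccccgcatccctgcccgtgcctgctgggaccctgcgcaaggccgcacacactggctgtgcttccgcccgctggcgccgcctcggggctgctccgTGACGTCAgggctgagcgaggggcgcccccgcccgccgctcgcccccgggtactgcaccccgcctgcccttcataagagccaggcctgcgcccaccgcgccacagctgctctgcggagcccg
Scg2: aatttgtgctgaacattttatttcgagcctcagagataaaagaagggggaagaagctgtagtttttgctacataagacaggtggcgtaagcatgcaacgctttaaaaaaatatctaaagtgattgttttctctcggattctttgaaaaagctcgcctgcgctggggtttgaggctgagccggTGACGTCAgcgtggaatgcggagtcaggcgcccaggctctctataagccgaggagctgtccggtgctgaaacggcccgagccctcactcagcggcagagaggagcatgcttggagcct
Slc18a2: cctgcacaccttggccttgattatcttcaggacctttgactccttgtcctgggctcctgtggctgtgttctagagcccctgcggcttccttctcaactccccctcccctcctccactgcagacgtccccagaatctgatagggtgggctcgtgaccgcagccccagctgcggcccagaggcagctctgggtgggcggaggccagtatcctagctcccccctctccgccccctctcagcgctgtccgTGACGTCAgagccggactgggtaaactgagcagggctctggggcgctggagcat

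Most of the other genes with the largest falls are known from neuroendocrine cells. Gal, the peptide galanin, was at 5.19, 6.85, 6.89 and 7.32 RPKM against 57.1, 55.6, 109 and 52.5 RPKM (log2 fold change -3.14, SE 0.22, adjusted p = 6.10e-05). Pcsk1, a prohormone convertase, was at 0.517, 1.0, 0.743 and 0.935 RPKM against 10.1, 9.37, 9.20 and 14.8 RPKM (-2.71, SE 0.16, adjusted p = 4.18e-05). Dlk1 (-2.90), a membrane ligand related to Notch ligands, Resp18 (-2.90), Ptprn (-2.81) and Scg5 (-2.55), proteins of secretory granules, Slc6a4 (-2.58), the serotonin transporter, and Eef1a2 (-2.58), a translation factor of neurons and muscle, had adjusted p values of 3.70e-05 to 0.000284. Tmem130, Nap1l5 and Tmem59l fell by 2.99, 2.71 and 2.52 on the log2 scale (adjusted p 4.18e-05 to 7.90e-05). None of these 11 calls was lost without any 1 library.

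Genes shared by neurons and neuroendocrine cells fell for 7 of 11 measured (median -0.82). Stmn2, a tubulin regulator of neurites, was 4.89-fold lower (-1.5, SE 0.12, adjusted p = 0.000111), and Syn1 (-1.63, adjusted p = 4.18e-05) and Snap25 (-1.80, adjusted p = 0.000200), of the synaptic vesicle machinery, fell with it. Genes of Schwann and sustentacular cells, the glia of the medulla, differed less: 2 of 6 fell (median -0.41), 1 or 0 of them when any 1 library was left out. The share of all genes called lower was 7.19%.

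Several of the genes with the largest rises are known from lipid metabolism. Cidea, a lipid droplet protein of brown fat, was at 11.1, 61.7, 37.0 and 10.9 RPKM against 1.21, 4.42, 1.34 and 1.83 RPKM. All 4 Znrf3 cKO libraries were above the controls, with a wide spread among them, and the mean was 13.7-fold higher (log2 fold change 3.02, SE 0.55, adjusted p = 0.00828). Scd1, stearoyl-CoA desaturase, was at 254, 743, 416 and 211 RPKM against 85.9, 200, 63.5 and 110 RPKM (1.77, SE 0.44, adjusted p = 0.0367). Fasn, fatty acid synthase (65.1, 234, 104 and 57.4 RPKM against 32.7, 45.3, 26.1 and 30.4 RPKM), and Acaca, acetyl-CoA carboxylase (10.7, 29.0, 13.4 and 8.89 RPKM against 5.52, 7.79, 4.64 and 4.75 RPKM), rose by 1.54 and 1.19 on the log2 scale (adjusted p = 0.0424 and 0.0478). PRVL2 was the highest library for these 4 genes. Plin2, which coats lipid droplets in steroidogenic and many other cells and was picked after its values were seen, was more even, at 76.7, 93.3, 92.8 and 76.8 RPKM against 29.9, 29.9, 49.7 and 41.0 RPKM (1.18, SE 0.17, adjusted p = 0.00201).

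These rises differed in how far they rested on single libraries and in what moved beside them. The calls of Cidea and Plin2 held without any 1 library. Scd1 was lost without PRVL1, PRVL2, PRVL3, PRVL5, PRVL8 or PRVL9 (adjusted p 0.0502 to 0.102), Fasn without PRVL3, PRVL5, PRVL6, PRVL8 or PRVL9 (0.0610 to 0.101) and Acaca without PRVL1, PRVL3, PRVL5, PRVL6, PRVL8 or PRVL9 (0.0597 to 0.112). Summed markers of adipocytes were 161 to 898 RPKM in Znrf3 cKO against 114 to 273 RPKM in controls, and those of brown adipocytes 39.0 to 218 RPKM against 29.9 to 48.1 RPKM, with no listed marker at 0 in all 8 libraries. All 9 adipocyte genes had a positive log2 fold change (median 1.19), and 1, Pparg, the adipocyte transcription factor, passed (1.49, SE 0.38, adjusted p = 0.0406), a call lost without any 1 library but PRVL4 (0.0519 to 0.104). Without PRVL4, 4 of the 9 passed. The share of all genes called higher with all 8 libraries was 2.81%. Adipoq, the defining adipokine, was at 28.9, 55.4, 87.9 and 14.0 RPKM against 14.9, 35.6, 18.9 and 7.36 RPKM (1.13, SE 0.58, adjusted p = 0.252), and Ucp1, the brown fat uncoupling protein, at 4.92, 41.9, 9.11 and 7.57 RPKM against 0.844, 5.67, 0.688 and 0.879 RPKM (2.29, SE 0.64, adjusted p = 0.0581). Glands were cleaned of excess fat at collection according to the study's methods, and the part of any remaining fat tissue in the lipid genes was not tested.

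Of 22 measured cholesterol synthesis genes 2 rose (median 0.09), against 2.81% of all genes called higher. The libraries were opposed behind this median. The summed level of the list was 351, 308 and 299 RPKM in PRVL2, PRVL3 and PRVL4, above the 229 to 278 RPKM of controls. In PRVL1 it was 231 RPKM, and PRVL1 was the lowest Znrf3 cKO library for 21 of the 22 genes. Acat2, an acetoacetyl-CoA thiolase, was at 28.7 to 37.1 RPKM against 20.6 to 23.7 RPKM (0.59, SE 0.09, adjusted p = 0.00357). Insig1, a sterol sensor that holds back SREBP, was at 18.6 to 35.0 RPKM against 7.67 to 16.7 RPKM (1.0, SE 0.24, adjusted p = 0.0319), a call lost without PRVL2, PRVL3, PRVL4 or PRVL5 (0.0648 to 0.0899).

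The remaining large rises were not drawn from 1 list. Crym, a thyroid hormone-binding protein, was at 23.2, 13.2, 23.1 and 21 RPKM against 3.62, 4.63, 4.87 and 2.68 RPKM, 5.10-fold higher with a clear gap between groups (log2 fold change 2.09, SE 0.20, adjusted p = 0.000255). Ly6e, a lipid-anchored surface protein, was at 372, 301, 572 and 575 RPKM against 123, 140.0, 132 and 94.9 RPKM (1.84, SE 0.22, adjusted p = 0.000858). Anxa1, a phospholipid-binding protein that responds to glucocorticoids, was at 22.3, 15.1, 12.2 and 9.64 RPKM against 3.96, 4.33, 4.16 and 2.75 RPKM (1.67, SE 0.23, adjusted p = 0.00158). The X-linked Xlr3a, Xlr3b and Xlr3c rose by 1.81, 2.24 and 2.40 on the log2 scale (adjusted p 0.000136 to 0.000280), but they are near-identical copies and their reads may be split between them. Rgs2, which limits G protein signalling, was 2.36-fold higher (1.22, SE 0.15, adjusted p = 0.000817), and Amy1, an amylase with close copies, was 2.51-fold higher (1.25, SE 0.26, adjusted p = 0.0150).

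Trank1, Higd1b, Pdlim4, Rarres1 and Tnfaip2 rose by 1.56, 1.49, 1.22, 1.22 and 1.18 on the log2 scale (adjusted p 0.00154 to 0.0133). None of the calls of these 13 genes was lost without any 1 library. The chemokine gene Ccl21a, which has close copies, was at 2.52, 3.75, 12.7 and 5.55 RPKM against 1.26, 0.397, 2.52 and 0.303 RPKM (1.67, SE 0.44, adjusted p = 0.0462), and its call was lost without PRVL2, PRVL3, PRVL4, PRVL5, PRVL6 or PRVL9 (0.0641 to 0.123). Ighm, the constant part of IgM of B cells, was at 57.9 to 83.4 RPKM against 27.0 to 35.6 RPKM (1.12, SE 0.13, adjusted p = 0.000720), the one of 7 measured lymphocyte genes that passed, and not in the shared fit (adjusted p = 0.105). Egfl7, of endothelial cells, was at 26.0 to 28.6 RPKM against 17.9 to 21.6 RPKM (0.46, SE 0.07, adjusted p = 0.00468), the one of 13 endothelial genes that passed. Beside these 2 lists, 2.81% of all genes were called higher.

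Macrophage genes leaned upwards at 6 weeks, but most did not pass the test as single genes. Macrophages clear dying cells and debris, and engulfment works through bridging molecules, receptors and lysosomes. Of 22 measured macrophage genes 20 had a positive log2 fold change (median 0.43), and 1 passed: Msr1, a scavenger receptor, at 2.69, 1.47, 1.59 and 1.84 RPKM against 0.821, 0.903, 1.16 and 1.07 RPKM (0.53, SE 0.13, adjusted p = 0.0393). That call was lost without any 1 library but PRVL2 or PRVL8 (0.0508 to 0.114), and 6 of the 22 passed without PRVL2. For all genes tested the median was 0.02 and 2.81% were called higher, so the 1 call says nothing particular about the list. C1qa, a complement gene of resident macrophages, was at 129, 72.7, 113 and 89.9 RPKM against 55.0, 60.3, 82.9 and 75.5 RPKM (0.54, SE 0.19, adjusted p = 0.114). Adgre1, the F4/80 antigen that defines macrophages, was at 6.78, 6.04, 9.18 and 8.90 RPKM against 4.82, 5.18, 5.64 and 6.69 RPKM (0.40, SE 0.14, adjusted p = 0.114).

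Of 23 engulfment and lysosome genes 3 passed (median 0.21), all upwards, against 2.81% of all genes called higher. Lgals3, galectin 3, was at 199, 12.3, 43.8 and 21.6 RPKM against 5.39, 4.49, 4.22 and 6.90 RPKM. All 4 Znrf3 cKO libraries were above the controls, PRVL1 by far the most (log2 fold change 2.71, SE 0.70, adjusted p = 0.0427). Its call was lost without PRVL3, PRVL4, PRVL5, PRVL6, PRVL8 or PRVL9 (0.0538 to 0.104) and kept without PRVL1. Mfge8, a bridging molecule between dying cells and phagocytes, was at 45.5, 39.8, 41.8 and 37.1 RPKM against 28.6, 28.4, 25.9 and 27.5 RPKM (0.55, SE 0.08, adjusted p = 0.00179). Lipa, lysosomal acid lipase, was at 70.9, 51.7, 52.6 and 63.5 RPKM against 39.8, 41.7, 34.4 and 35.7 RPKM (0.63, SE 0.11, adjusted p = 0.00795), and neither call was lost without any 1 library, though that of Mfge8 was lost in the fit shared with males at 4 and 12 weeks (adjusted p = 0.186). Without PRVL1 the median of the list was 0.05, and without PRVL4 5 genes passed.

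Cell cycle genes were centred on no change. Of 25 measured, 1 passed (median 0.00): Ccne1, cyclin E1, was at 0.375, 1.66, 0.870 and 0.963 RPKM against 4.96, 4.80, 2.74 and 2.15 RPKM (log2 fold change -1.23, SE 0.25, adjusted p = 0.0158). The centre hid opposite libraries, since PRVL2 had the highest of the 8 values for 23 of the 25 genes and PRVL1 the lowest for 20. Mki67, the proliferation antigen, was at 1.16, 6.80, 1.69 and 3.52 RPKM against 2.68, 3.89, 2.61 and 2.17 RPKM, and Top2a, a topoisomerase of dividing cells, at 0.583, 5.15, 1.59 and 2.44 RPKM against 2.04, 2.76, 2.18 and 1.74 RPKM. Among 19 p53 targets and cell cycle inhibitors 1 passed (median 0.27): Bax, a mediator of apoptosis, at 24.5 to 28.7 RPKM against 17.6 to 22.8 RPKM (0.39, SE 0.09, adjusted p = 0.0242), lost without PRVL3, PRVL4, PRVL5 or PRVL6 (0.0582 to 0.0789). Without PRVL1, 5 of the 19 passed. With all 8 libraries, 2.81% of all genes were called higher and 7.19% lower. Jun, an immediate early transcription factor, rose by 0.53 (SE 0.10, adjusted p = 0.00758), 1 of 11 such genes, with an adjusted p of 0.0574 in the shared fit.

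PRVL1 stood apart from the other Znrf3 cKO libraries. In PRVL1, 72 genes lay at least 2-fold above each of the other 7 libraries and 2 at least 2-fold below, on the scale of RPKM + 1. The other 7 libraries had 3 to 19 such genes above and 1 to 21 below, so only the count above set PRVL1 apart. Its correlations with PRVL2, PRVL3 and PRVL4 (r = 0.9775 to 0.984 across genes) were below those among these 3 (0.9849 to 0.9863). Its root mean square distance from the mean of its group, 0.321 on the log2 scale, was the largest among Znrf3 cKO libraries (PRVL2 0.282, PRVL3 0.283, PRVL4 0.245) and lay between those of the controls PRVL8 (0.314) and PRVL9 (0.323). On the first principal component, which held 48.5% of the variance and separated the groups, PRVL1 (35.1) was the farthest of the Znrf3 cKO libraries (21.2 to 35.1) from the controls (-32.0 to -17.5), and on the third (10.8%) it had the most extreme value (22.3).

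The 10 genes farthest above the rest in PRVL1 included many of lipid-laden or phagocytic macrophages. Cd5l, a macrophage-secreted scavenger protein, was at 46.9 RPKM in PRVL1 and at most 2.91 RPKM in any other library. Atp6v0d2, a subunit of the lysosomal proton pump, was at 31.6 against at most 3.61 RPKM, Gpnmb, a glycoprotein of foamy macrophages, at 76.0 against at most 10.6 RPKM, and Mmp12, macrophage elastase, at 34.3 against at most 4.39 RPKM. The lectin receptor Clec7a (32.6 against at most 5.83 RPKM), the lipid receptor Trem2 (14.5 against at most 2.58 RPKM), Lgals3, and the lysozymes Lyz1 and Lyz2 (95 and 680.0 against at most 21.9 and 172 RPKM, near-identical copies) belonged to this set. The stress factor Atf3 (14.7 against at most 2.06 RPKM) completed it. PRVL3 was the second highest library for Cd5l, Atp6v0d2, Gpnmb, Mmp12, Lgals3 and Trem2.

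PRVL1 had the highest of the 8 values for 15 of 22 macrophage and 15 of 23 engulfment genes. Its summed macrophage level was 2157 RPKM, against 693 to 1028 RPKM in PRVL2 to PRVL4 and 583 to 779 RPKM in controls, and its summed engulfment level 2415 RPKM, against 1247 to 1514 RPKM in all other libraries. The rise was uneven across markers: 6 of the 22 macrophage genes were at least 2-fold above every other library, while Adgre1 in PRVL1 (6.78 RPKM) was below PRVL3 and PRVL4. Cd68, a lysosomal macrophage marker, was at 87.9 RPKM in PRVL1, 12.0, 27.8 and 16.6 RPKM in PRVL2 to PRVL4 and 9.43 to 12.4 RPKM in controls. In the opposite direction PRVL1 was the lowest library for 17 of 18 chromaffin genes, for 20 of 25 cell cycle genes and for all 5 genes of red blood cells. It was also the lowest of the 8 for 11 of 22 cholesterol synthesis genes. The genes farthest below the rest were Pnmt and, at smaller gaps, Scg2, Th, Slc6a4, Dlk1, Chgb, Chga, Npy, Hist1h2bn and Penk.

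At 12 weeks, where levels were scaled separately, the Znrf3 cKO males held values among which PRVL1 fell for all 10 genes named above. Gpnmb was at 198, 462, 315 and 67.5 RPKM in the 12-week Znrf3 cKO libraries, against 76.0 RPKM in PRVL1, and Lgals3 at 344, 428, 444 and 115 RPKM, against 199 RPKM. At 4 weeks Gpnmb was at 1.28 to 1.98 RPKM and Lgals3 at 7.80 to 18.6 RPKM in Znrf3 cKO. These genes were picked for being highest in PRVL1, and other genes placed it outside the 12-week Znrf3 cKO range. Hsd3b3 was at 1.67 RPKM in PRVL1 against 9.52 to 13.5 RPKM in the 12-week Znrf3 cKO libraries, Dkk3 at 6.80 against 14.0 to 22.5 RPKM and Bex1 at 3.96 against 7.27 to 32.6 RPKM. Hsd3b3, Dkk3 and Bex1 were in turn picked because their knockout effect differed from that at 12 weeks. The other Znrf3 cKO libraries of the same age as PRVL1 were outside the 12-week range for them too. Because both sets were selected, neither shows how near PRVL1 was to the 12-week libraries.

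Leaving out PRVL1 lowered the count of calls to 1466, of which 1338 were among the 1917 and in the same direction. The drop was not particular to PRVL1, since 1621, 1427 and 1459 genes were called without PRVL2, PRVL3 and PRVL4. Of 94 named genes that passed the test, 14 were lost without PRVL1, 11 without PRVL2, 18 without PRVL3 and 15 without PRVL4. No named gene changed sign as a called value, and over all 8 left-out libraries the log2 fold change nearest to 0 was -3.03 for Th, -3.16 for Pnmt and -3.19 for Chgb, and -1.12 for Penk and -0.37 for Ret, which are among the chromaffin genes that differed least.

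The other Znrf3 cKO libraries had features of their own. PRVL2 had the highest values of the 8 for 23 of 25 cell cycle genes, all 5 red blood cell genes and all 4 measured brown fat genes, and its summed red blood cell level was 3713 RPKM against 739 to 2623 RPKM elsewhere. Cdkn1c, a cell cycle inhibitor, was at 62.5 RPKM in PRVL2 and at 17.5 to 22.6 RPKM in the other 7. PRVL4 had the highest value for 6 of 7 neutrophil genes, with a summed level of 99.2 RPKM against 2.10 to 37.5 RPKM elsewhere. S100a8 and S100a9, the calprotectin subunits of neutrophils, were at 20.4 and 56.1 RPKM there and at 7.34 and 21.4 RPKM in PRVL2, the next highest. PRVL4 was also highest for the immediate early genes Fos (18.1 RPKM against 0.502 to 6.90 RPKM) and Egr1 (29.2 RPKM against 2.04 to 12.7 RPKM). The part of blood, neutrophils or handling in any of the differences was not tested.

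**Figure D4:**
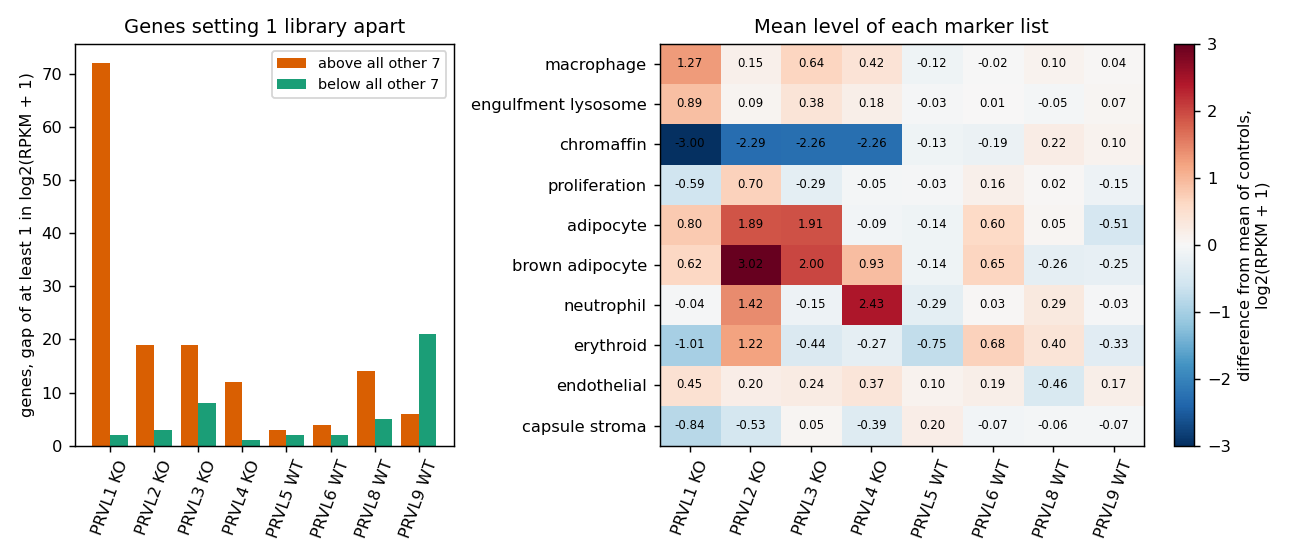
Left, the number of genes in which a library lies at least 1 unit of log2(RPKM + 1) above (orange) or below (green) all other 7 libraries. Right, the mean level of each marker list per library as a difference from the mean of the 4 controls, in log2(RPKM + 1), with red above and blue below. PRVL1 has 72 genes above and shows the highest macrophage (1.27) and engulfment (0.89) levels and the lowest chromaffin level (-3.0), while PRVL2 is highest for proliferation (0.70) and PRVL4 for neutrophils (2.43).

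A pair of neighbouring genes on chromosome 17 split the libraries otherwise than by group. Mapk13, a p38 MAP kinase (chr17:28769297-28780233 in mm10), was at 0.137, 0.339, 0.294 and 11.4 RPKM in Znrf3 cKO and at 15.3, 22.2, 15 and 17.1 RPKM in controls, so PRVL4 was near the controls and the other 3 were near 0. Brpf3, a chromatin reader whose gene starts 20.9 kb beyond the end of Mapk13 (chr17:28801090-28839949), was at 3.50, 4.37, 4.17 and 9.11 RPKM against 10.8, 11.5, 13.0 and 11.5 RPKM, again with PRVL4 nearest to the controls. Both were called lower (log2 fold change -3.03, SE 0.69, adjusted p = 0.0246, and -1.09, SE 0.22, adjusted p = 0.0152), and the call of Mapk13 was lost without PRVL1, PRVL2, PRVL3, PRVL5, PRVL6 or PRVL9 (0.0565 to 0.0702).

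Low values of the pair occurred in other groups too, controls included. Among males at 4 weeks, the Znrf3 cKO libraries had Mapk13 at 15.2, 0.143, 0.184 and 16.6 RPKM and Brpf3 at 11.0, 4.37, 5.26 and 8.08 RPKM. Among females at 6 weeks, the controls had Mapk13 at 0.403, 28.2, 0.674 and 21.1 RPKM and Brpf3 at 4.44, 10.4, 4.59 and 7.95 RPKM, while the Znrf3 cKO libraries had Mapk13 at 26.3 to 75.7 RPKM. In each of these groups the libraries low in Mapk13 were also the lowest in Brpf3. Of 40 genes tested within 1000000 bases of Mapk13 on either side, 5 were called at 6 weeks in males, of which Rps2-ps9 and Scube3 were higher, against 10.0% over all genes, so the count does not set the region apart.

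The knockout effect at 6 weeks was compared with that at 4 weeks in males through an interaction term, which asks whether the difference between Znrf3 cKO and control itself changed with age. Each age had been scaled separately, and the term compares differences within an age. Of 19873 genes tested, 39 (0.196%) passed, 22 (0.111%) where the effect was more positive at 6 weeks and 17 (0.0855%) where it was more negative. None of these 39 calls was left with a pseudocount of 0.1 in place of 1 (limma, 2297 genes at an unadjusted p under 0.05), and 4 genes passed without PRVL1. Zfp36, an RNA-binding brake on inflammatory transcripts, was at 9.19, 7.34, 7.66 and 11.8 RPKM against 4.60, 6.15, 7.32 and 5.67 RPKM at 6 weeks, and at 6.24, 6.11, 6.47 and 8.69 RPKM against 13.4, 15.4, 14.7 and 14.2 RPKM at 4 weeks. The estimate thus changed sign, though the effect at 6 weeks did not pass by itself (limma, adjusted p = 0.0770). The difference of effects was 1.5 (SE 0.20, adjusted p = 0.0166). That difference still passed without PRVL1 (adjusted p = 0.0440) but not with a pseudocount of 0.1 (adjusted p = 0.0530).

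Of the other genes named for this test, Cebpa (2.35), an adipocyte and myeloid transcription factor, Cd36 (1.90), a fatty acid and scavenger receptor, Lrg1 (1.82), a secreted glycoprotein, and Rgs2 (1.32) had more positive effects at 6 weeks. Taf9b (-0.86), Rragb (-0.84), Mettl1 (-0.77), Pfn2 (-0.74) and Slc35g2 (-0.71) had more negative ones. Their adjusted p values were 0.0389 to 0.0499, and 0.0660 to 0.0785 without PRVL1. Slc35g2, a solute carrier, is an example, with 3.60, 3.67, 3.67 and 3.66 RPKM against 9.65, 8.46, 8.93 and 9.28 RPKM at 6 weeks and 3.62, 3.79, 3.45 and 3.55 RPKM against 5.19, 5.98, 5.07 and 4.21 RPKM at 4 weeks. The gap between Znrf3 cKO and controls was wider at 6 weeks. Because the ages were scaled separately, these values do not tell in which group the level changed. For Th, Lgr5 and Znrf3 the Znrf3 cKO and control values were also apart at 4 weeks (Lgr5 at 0.313 to 0.647 RPKM against 3.26 to 4.70 RPKM). The interaction term did not pass for Th (-0.36, adjusted p = 0.793), Lgr5 (-0.19, SE 0.22, adjusted p = 0.739) or Znrf3 (-0.28, SE 0.16, adjusted p = 0.490). It passed for none of the 18 chromaffin genes, so their fall was not shown to differ between 4 and 6 weeks.

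Against 12 weeks the effect differed for 428 of 19878 genes (2.15%), with 124 (0.624%) more positive and 304 (1.53%) more negative at 6 weeks. Without PRVL1 the count was 568. Hsd3b3 had the smallest adjusted p of the named genes: it was at 0.947 to 1.79 RPKM against 2.27 to 6.36 RPKM at 6 weeks and at 9.52 to 13.5 RPKM against 1.6 to 3.46 RPKM at 12 weeks (difference of effects -2.79, SE 0.30, adjusted p = 0.000379), and Hsd3b4 behaved likewise (-2.46, SE 0.32, adjusted p = 0.000937). Bex1, an X-linked adaptor protein of neural cells, was at 3.96, 2.10, 1.95 and 2.12 RPKM against 9.93, 8.44, 7.96 and 8.12 RPKM at 6 weeks and at 7.27 to 32.6 RPKM against 4.21 to 9.58 RPKM at 12 weeks (-2.98, SE 0.50, adjusted p = 0.00774). Ctsl, a lysosomal protease, was at 49.9, 17.4, 21.6 and 19.6 RPKM against 21.7 to 28.4 RPKM at 6 weeks and at 50.7 to 269 RPKM against 23.1 to 31.8 RPKM at 12 weeks (-2.53, SE 0.56, adjusted p = 0.0316). Ly6d, a surface protein, also had a more negative effect at 6 weeks (-2.71, SE 0.56, adjusted p = 0.0255).

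Several genes of lipid metabolism had a positive effect at 6 weeks and a negative one at 12 weeks. Cidea (5.36, SE 1.21, adjusted p = 0.0339), Scd1 (4.09, SE 0.97, adjusted p = 0.0411) and Insig1 (2.02, SE 0.41, adjusted p = 0.0241) passed, and the controls at 12 weeks were uneven for them, with Cidea at 1.69 to 89.5 RPKM. Amy1 (1.99, SE 0.34, adjusted p = 0.00958) and Sbsn (2.08, SE 0.46, adjusted p = 0.0310), an epidermal protein, passed with the same sign of the difference. Sbsn was not raised at 6 weeks (limma, adjusted p = 0.436, log2 fold change -0.35 to -0.10 over left-out libraries). Its positive difference thus reflects a deeper fall at 12 weeks. Of 18 chromaffin genes 3 passed, with deeper falls at 6 weeks, among them Ddc (-1.59, SE 0.32, adjusted p = 0.0221) and Slc18a1 (-1.59, SE 0.31, adjusted p = 0.0202). Pnmt did not pass (-2.34, SE 0.88, adjusted p = 0.171). Dkk3, at 14.0 to 22.5 RPKM against 13.7 to 23.3 RPKM at 12 weeks, had a more negative effect at 6 weeks (-0.90, SE 0.19, adjusted p = 0.0291).

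Against females of the same age the effect differed for 426 of 20518 genes (2.08%), with 192 (0.936%) more positive and 234 (1.14%) more negative in males. Without PRVL1 the count was 334. Among the fixed lists, 2 of 9 adipocyte, 2 of 7 brown adipocyte, 3 of 13 endothelial and 3 of 22 cholesterol synthesis genes passed. All of these were more positive in males, as were 1 of 23 engulfment genes and 1 of 19 p53 targets and cell cycle inhibitors. In the chromaffin list 1 of 18 passed, more negative in males, and none of 22 macrophage genes did. Cidea was at 4.91 to 13.2 RPKM against 20.6 to 62.6 RPKM in females, the opposite direction to males (difference of effects 5.03, SE 0.76, adjusted p = 0.00465), and Ucp1 at 3.51 to 13.8 RPKM against 26.6 to 264 RPKM (5.32, SE 1.03, adjusted p = 0.0169). Cdo1 (3.40), cysteine dioxygenase, Pnpla3 (3.17), a lipase of lipid droplets, Cma1 (3.01), a mast cell protease, Fasn (2.82), Pparg (2.60) and Acaca (2.21) passed too (adjusted p 0.0105 to 0.0355). All of these had lower levels in female Znrf3 cKO than in female controls on average.

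In the other direction Scube1, a secreted EGF-domain protein, was at 7.52 to 11.3 RPKM against 0.796 to 1.72 RPKM in females, while male libraries were at 0.970 to 1.78 RPKM in both groups (-2.41, SE 0.19, adjusted p = 5.48e-05). Mgat4c, a glycosyltransferase gene, was at 68.0, 15.6, 34.9 and 7.53 RPKM against 1.12 to 2.50 RPKM in females and at 0.0520 to 0.161 RPKM against 0.833 to 1.82 RPKM in males, so the effect had opposite signs (-4.33, SE 0.63, adjusted p = 0.00341). Nxph1, a secreted neurexin ligand, was at 2.35 to 8.98 RPKM against 0.248 to 0.411 RPKM in females and at or under 0.126 RPKM in every male library at 6 weeks (-2.11, SE 0.31, adjusted p = 0.00341). Mapk13 (-5.75, SE 1.33, adjusted p = 0.0408, and 0.0753 without PRVL1) and Brpf3 (-1.86, SE 0.38, adjusted p = 0.0241) passed as well. Lgr5 (-0.35, SE 0.23, adjusted p = 0.476), Znrf3 (-0.20, SE 0.15, adjusted p = 0.555) and Pnmt (0.64, SE 0.72, adjusted p = 0.688) did not pass, and Axin2, at 5.04 to 7.89 RPKM against 6.65 to 7.70 RPKM in females, did not either (0.61, SE 0.16, adjusted p = 0.0716).

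**Figure D5:**
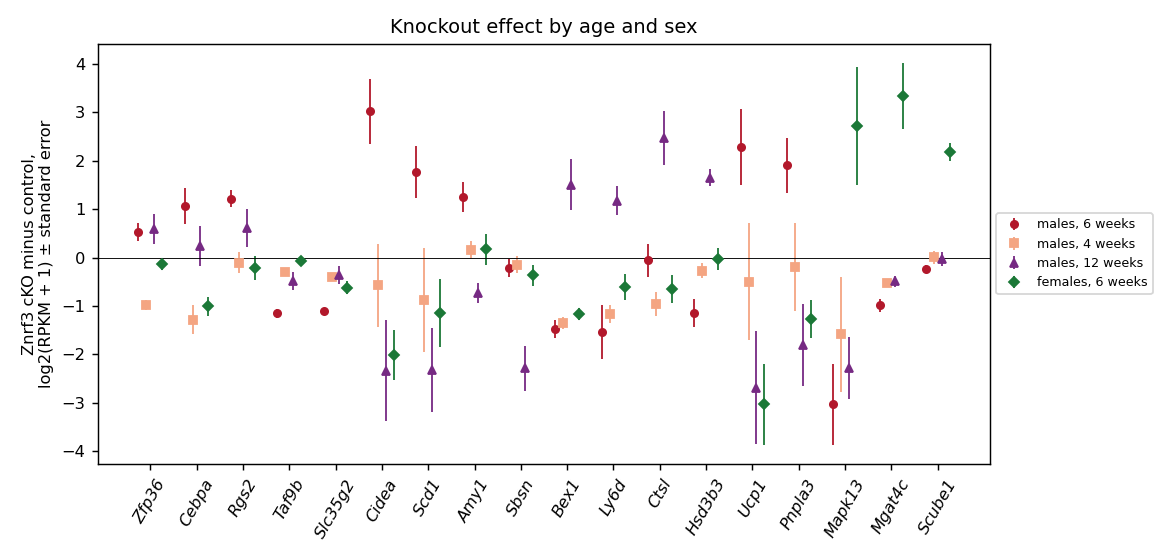
Knockout effect (mean of Znrf3 cKO minus mean of controls in log2(RPKM + 1), ± standard error from the libraries of each group) for 18 genes in males at 6 weeks (red circles), 4 weeks (orange squares) and 12 weeks (purple triangles) and in females at 6 weeks (green diamonds). Cidea, Scd1 and Ucp1 lie above 0 only in males at 6 weeks, and Mgat4c and Scube1 lie far above 0 only in females.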

How the data were processed

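Whole-adrenal RNA was sequenced as poly(A) libraries, single reads of 50 bp from 300 ng of total RNA. The authors used cutadapt 3.2 for trimming, FastQC 0.11.7 for quality control and HISAT2 2.2.1 for alignment to mm10, counted reads with SummarizeOverlaps and ran DESeq2 1.34.0 (bcl2fastq 2.17.1.14 is also named in the submitters' processing notes). The annotation and strand setting of the counting are not given in the sources used here. The values deposited by the authors are RPKM, 1 table of 54838 genes by 73 libraries. They carry a scaling made within each sex and age, so levels of different ages or sexes were scaled separately. Whole reads were recovered for 98.02% to 98.62% of low values (tolerance 0.02 reads), with GENCODE gene lengths. A fit with voom weights on these reads, chosen after seeing the data, called 2043 genes.

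Tests used limma 3.58.1 (R 4.3.3, lmFit and eBayes with trend) on log2(RPKM + 1), which understates changes of low genes. Genes needed a mean of at least 0.5 RPKM in a compared group. P-values were two-sided and adjusted by Benjamini-Hochberg over all genes tested, with a threshold of 0.05, and the script was tested on simulated data. Tables and figures were made with Python 3.11.15, pandas 2.3.3, numpy 2.4.6 and matplotlib 3.10.9. Named genes were Znrf3 and sex genes, members of fixed gene lists, the 20 largest changes in each direction (or fewer) among called and separated genes with at least 5 RPKM, up to 10 genes in each direction with the largest gap of PRVL1, and up to 5 genes in each direction per interaction test, without predicted genes. Plin2 falls outside this rule and was chosen after its values were seen. Some list members are not reported here by name. The members and gene lists were chosen with earlier results of these data known. Alternatives were the pseudocount, the filter, a common sum, array weights, a shared fit, a fold threshold and leaving out each library.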

Additional observations from a re-analysis of the deposited data

Results flagged for a closer look

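A library stood far from the other 3 of its group (Dixon's test at the 0.95 level) in 39 of 278 groups examined. Chance flags about 1 in 20 groups of unselected genes, but some genes here were picked for the gap of PRVL1, so that rate does not apply to the count. PRVL1 accounted for many of these among Znrf3 cKO libraries, in RPKM: Cd5l at 46.9, Gpnmb at 76.0, Atp6v0d2 at 31.6, Trem2 at 14.5, Mmp12 at 34.3, Clec7a at 32.6, Lgals3 at 199, Lyz2 at 680.0, Lyz1 at 95, Atf3 at 14.7, Tnfaip2 at 24.9, Ctsl at 49.9 and Bex1 at 3.96 were high. Slc6a4 at 1.37, Cyb561 at 19.0 and Slc35g2 at 3.60 were low in PRVL1. PRVL2 was apart for Ucp1 at 41.9, Cdkn1c at 62.5, Dab2 at 47.0 and Hsd3b4 at 0.669 RPKM. PRVL3 was apart for Wnt4 at 53.6 RPKM. PRVL4 was apart for Mapk13 at 11.4, Brpf3 at 9.11, Fos at 18.1 and Rragb at 2.10 RPKM.

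Among controls, PRVL5 was apart for Tnfrsf19 at 16.8, Gli1 at 3.38 and Mmp12 at 1.80 RPKM, and PRVL6 for Ucp1 at 5.67 and Pparg at 1.90 RPKM. PRVL8 was apart for Npy at 1315, Gal at 109, Slc6a4 at 15.7 and Agtr1b at 9.14 RPKM. PRVL9 was apart for Akr1c18 at 4.37, Eef1a2 at 34.1, Tmem130 at 28.8, Pcsk1 at 14.8 and Snap25 at 9.93 RPKM.

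The knockout effect differed between 6 and 4 weeks in males, by the interaction test on the log2 scale, for Cebpa (2.35), Cd36 (1.90), Lrg1 (1.82), Zfp36 (1.5), Rgs2 (1.32), Slc35g2 (-0.71), Pfn2 (-0.74), Mettl1 (-0.77), Rragb (-0.84) and Taf9b (-0.86). Between 6 and 12 weeks it differed for Cidea (5.36), Scd1 (4.09), Sbsn (2.08), Insig1 (2.02), Amy1 (1.99), Dkk3 (-0.90), Ddc (-1.59), Slc18a1 (-1.59), Hsd3b4 (-2.46), Ctsl (-2.53), Ly6d (-2.71), Hsd3b3 (-2.79) and Bex1 (-2.98). Between males and females at 6 weeks it differed for Ucp1 (5.32), Cidea (5.03), Cdo1 (3.40), Pnpla3 (3.17), Cma1 (3.01), Fasn (2.82), Pparg (2.60), Acaca (2.21), Brpf3 (-1.86), Nxph1 (-2.11), Scube1 (-2.41), Mgat4c (-4.33) and Mapk13 (-5.75).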

How the results depend on the processing

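The 1917 genes called became 824 with a filter of at least 5 RPKM, 3842 with array weights and 471 past an absolute log2 fold change of 1, and ranged from 1259 (without PRVL6) to 2444 (without PRVL8) when 1 library was left out. It was 1261 without PRVL5. The 539 rises became 347 with no filter, 326 with a common sum, 328 with the 5 RPKM filter, 1634 with array weights, 242 with PRVL5 and PRVL6 averaged (chosen after seeing the data) and 86 with the fold threshold, and ranged from 239 to 875 over left-out libraries (241 without PRVL5, 298 without PRVL3). The 1378 falls became 496, 2208 and 385 with the 5 RPKM filter, array weights and the fold threshold. The interaction with 4 weeks went from 39 genes to 0 with a pseudocount of 0.1, 15 with no filter, 7 with a common sum and 4 without PRVL1. That with 12 weeks went from 428 to 132 with no filter and 236 with a common sum, and that with females from 426 to 250 with a pseudocount of 0.1, 263 with no filter and 283 with a common sum. The cause of these shifts was not tested. Of 94 named genes called, 70 kept their call whichever 1 library was left out, and no value of a called gene changed sign under any alternative run. In the fit shared with males at 4 and 12 weeks 14 of the 94 lost their call, and 18 did with no filter on low values. No paired analysis was possible because the labels give no replicate numbers that the groups share.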
